A study of Arabidopsis thaliana with 12 samples.

Results

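Transcript levels of 5 nuclear genes for proteins of the plastid ribosome, RPL5, RPL17, RPL34, RPS6 and RPS10, were compared between Arabidopsis thaliana plants treated with the herbicide DCMU and untreated plants. Members were the probes whose platform annotation gives a single locus, that locus being one of these 5 genes. They were 5 probes among the 692 annotated to 1 gene and the 3439 on the array. The annotation gives loci without gene names, so the symbols are those of the list used to choose the members: AT4G01310 for RPL5, AT3G54210 for RPL17, AT1G29070 for RPL34, AT1G64510 for RPS6 and AT3G13120 for RPS10. No probe sequence was checked.

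All plants were wild type of ecotype C24 and stood in light that favours photosystem II. In 6 samples the plants had also received DCMU, and 6 samples came from untreated plants. Total RNA was measured, with 1 column of spot values per sample, called an array here. The labels do not say whether 2 samples of a group can be repeat spots or scans of 1 hybridisation. The labels give no age, tissue, DCMU dose or treatment time.

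Plastid ribosomes are of the bacterial type and make the proteins encoded in the plastid genome, among them the reaction-centre proteins of both photosystems. Their RNAs are transcribed in the plastid, but many of their proteins are encoded in the nucleus, made in the cytosol and imported. DCMU (diuron) stops electrons from leaving photosystem II for the plastoquinone pool. The comparison asks whether transcripts of the nuclear ribosomal genes differ between treated and untreated plants.

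Levels are spot intensities in the authors' scaled units. Array totals ran from 3643 to 3768, and the median spot from 0.596 to 0.687. Samples numbered 1 and 2, 3 and 4, and 5 and 6 deviated together within each group, so each of these number pairs was averaged to 1 replicate, which left 3 replicates per group. The labels do not say whether replicates came from separate plantings, so tests measure the spread between these samples, which may be technical. Of the 7 leaf markers, 4 had a probe of their own, and none of the 3 root markers did, so the share of leaf and root RNA was not analysed here. In bulk RNA, fewer cells of a type and less RNA per cell cannot be told apart. The leaf marker LHCB1.5, a light-harvesting antenna gene, had a lowest, median and highest intensity of 8.23, 10.5 and 11.0 in DCMU-treated plants, against 18.7, 22.7 and 25.4 in untreated plants. The other 3 measured leaf markers had higher medians with DCMU: 3.10 in DCMU-treated and 2.90 in untreated plants for the photosystem I subunit PSAN, 0.876 and 0.635 for the Calvin cycle enzyme PRK, and 0.857 and 0.630 for SBPASE, another enzyme of that cycle.

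No member passed limma's test between DCMU-treated and untreated plants, 0 of 5, where 5.09% of all 3278 features did. All 5 estimates were nevertheless below 0, as were those of 32.6% of all features, a share that was 46.3% with median centring of the arrays. The members' median log2 change was -0.15, between -0.21 for RPS6 and -0.04 for RPL34. Over all features the median was 0.10, with a 5th percentile of -0.38 and a 95th of 0.41. At an unadjusted p under 0.05 the count was again 0 of 5 members, against 24.5% of features. That count depended on the setting: with median centring and the number pair as a block together it was 3 of 5 (RPL5, RPS6 and RPS10), against 32.9% of features. With the number pair as a block, 0 of 5 members passed, against 17.3% of features. The 95% intervals of the 5 members together reached from -30.6% (RPS6) to 16.6% (RPL17), so a 2-fold change in either direction lay outside each of them. These intervals reflect the spread between these samples, which may be technical, and need not cover the spread between separate plantings. In the plot of change against level, the members lie inside the cloud of features that did not pass.

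**Figure D1:**
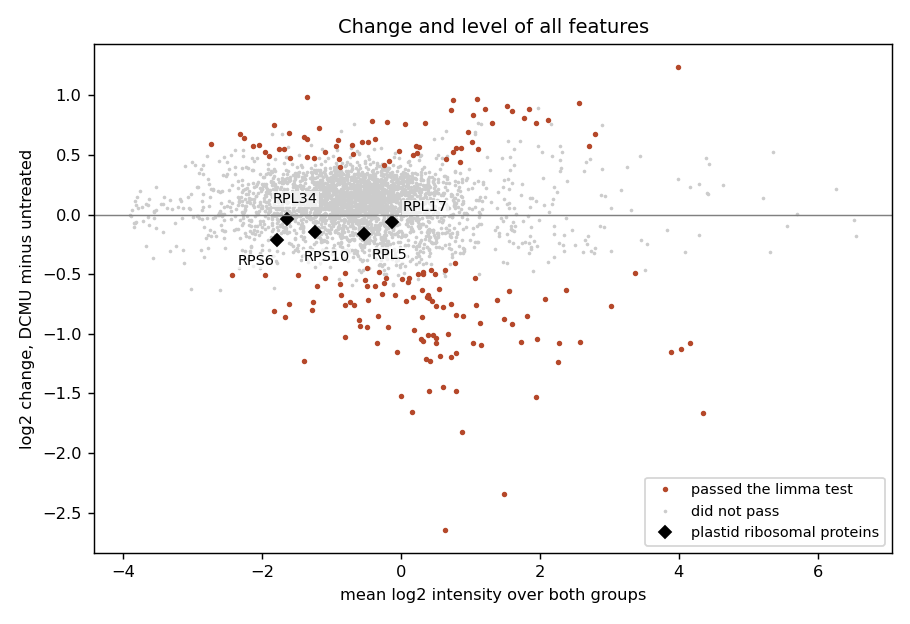
The log2 change (DCMU minus untreated, vertical axis) is plotted against the mean log2 intensity over both groups (horizontal axis) for 3278 features, with features that passed limma's test in red and the 5 plastid ribosomal protein genes as black diamonds. The diamonds lie between -0.21 and -0.04, among the grey features that did not pass.

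Among the large-subunit genes, RPL5 encodes a protein that binds the 5S ribosomal RNA. Its 3 replicates stood at 0.665, 0.617 and 0.689 in DCMU-treated plants (numbers 1-2, 3-4 and 5-6), against 0.742, 0.701 and 0.759 in untreated plants. All DCMU replicates were thus below all untreated ones, an order that 8.69% of all features also showed. The single arrays overlapped: their lowest, median and highest intensities were 0.611, 0.659 and 0.715 with DCMU, against 0.679, 0.741 and 0.762 without. RPL5 averaged 0.657 ± 0.0366 in DCMU-treated plants and 0.734 ± 0.0298 in untreated plants (SD, n = 3 each). The change was -10.5% (95% interval -23.6% to 4.71%; log2 change -0.16, limma, adjusted p = 0.335, and 0.0479 to 0.577 over 21 alternatives). The low end, which is past the threshold, belongs to the fit that counted all 12 samples singly, although the paired numbers deviate together; in that fit 1 of 5 members passed, against 33.2% of features.

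RPL5 was also the steadiest member. Its residual SD was 0.071 on the log2 scale, where the median feature had 0.144. Arrays of the same number pair differed by a median of 0.054 on that scale, against 0.0834 for the median feature. DCMU was lower than untreated at all 6 numbers, which held for 12% of features. The change per number pair was -0.16, -0.18 and -0.14 on the log2 scale.

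RPL17 encodes a protein that, in bacteria, lies near the exit of the peptide tunnel. It stood at 1.07, 0.806 and 0.830 in DCMU-treated plants (numbers 1-2, 3-4 and 5-6), against 0.987, 0.880 and 0.941 in untreated plants. The DCMU replicate of numbers 1-2 was the highest of all 6, and the other two DCMU replicates were the lowest, so the untreated replicates fell in between. Single arrays had a lowest, median and highest intensity of 0.778, 0.851 and 1.09 with DCMU, against 0.839, 0.941 and 1.02 without. The mean was 0.901 ± 0.145 in DCMU-treated plants and 0.936 ± 0.0536 in untreated plants (SD, n = 3 each), or a coefficient of variation of 16.1% with DCMU and 5.73% without. RPL17 changed in opposite directions in the number pairs, by 0.12, -0.13 and -0.18 on the log2 scale, and its estimate was -0.06 (95% interval -0.35 to 0.22; limma, adjusted p = 0.776, and 0.361 to 0.973 over 21 alternatives). Without DCMU numbers 3-4 the estimate was 0.01, and without DCMU numbers 1-2 it was -0.19.

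RPL34 encodes a small, basic protein of the large subunit. Its replicates were at 0.335, 0.288 and 0.328 in DCMU-treated plants (numbers 1-2, 3-4 and 5-6), against 0.320, 0.358 and 0.298 in untreated plants. The groups overlapped, and DCMU was lower in only 1 of 3 number pairs. The lowest, median and highest arrays were 0.260, 0.318 and 0.361 with DCMU, against 0.268, 0.331 and 0.387 without. Means of 0.317 ± 0.0250 in DCMU-treated plants and 0.325 ± 0.0303 in untreated plants (SD, n = 3 each) differed by -2.49% (95% interval -18.3% to 16.4%; limma, adjusted p = 0.856, and 0.369 to 0.996 over 20 alternatives). By number pair the log2 change was 0.07, -0.31 and 0.14, so the negative estimate rests on numbers 3-4: it was 0.03 without DCMU numbers 3-4 and also 0.03 without untreated numbers 3-4.

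For RPL34 and RPL17 the arrays within a number pair stood further apart than the groups did. The median log2 gap within a pair was 0.224 for RPL34 and 0.0998 for RPL17, against group differences of 0.0364 and 0.0641. For RPL34 the first number of the pair was above the second in all 6 pairs of arrays. The gap was 0.0923 to 0.311 on the log2 scale (mean 0.23). Such an order in all 6 pairs was seen in 6.22% of features. RPL17 showed the first number higher in 1 of 6 pairs, RPS10 in 2, RPS6 in 3 and RPL5 in 4. What separates the first from the second number is not given in the labels, and its part in the RPL34 values was not tested.

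**Figure D2:**
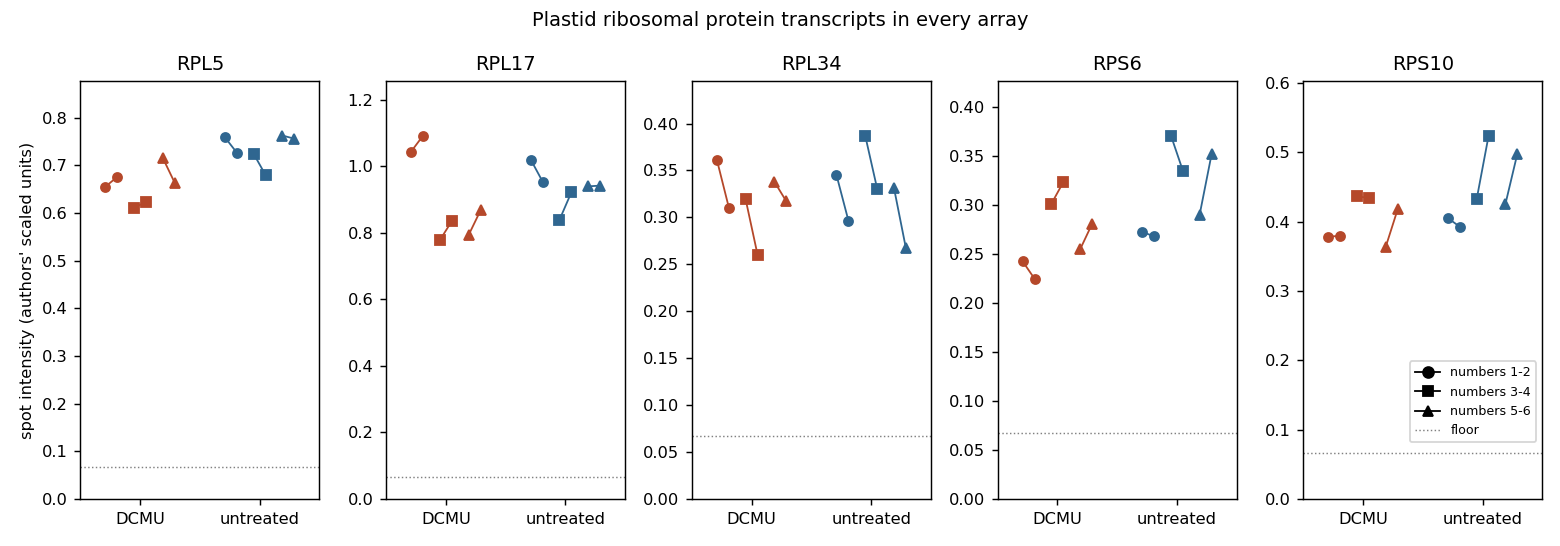
Spot intensity in the authors' scaled units (vertical axis, from 0, a separate scale per gene) is shown for the 6 DCMU arrays in red and the 6 untreated arrays in blue; lines join the arrays of a number pair, and the dotted line is the floor of 0.0669. RPL5 arrays with DCMU lie between 0.611 and 0.715, against 0.679 to 0.762 without, while the RPL34 lines slope down in all 6 pairs.

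The 2 small-subunit genes had the lowest and the third-lowest estimates. RPS6 encodes a protein that pairs with S18 on the platform of the small subunit in bacteria. Its replicates were 0.233, 0.312 and 0.267 in DCMU-treated plants (numbers 1-2, 3-4 and 5-6), against 0.270, 0.352 and 0.319 in untreated plants. The groups overlapped, because numbers 3-4 were high and numbers 1-2 low in both. Within each number pair, however, the DCMU replicate was the lower one, with log2 changes of -0.21, -0.18 and -0.26, and DCMU was lower at all 6 single numbers.

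Single RPS6 arrays had a lowest, median and highest intensity of 0.225, 0.267 and 0.323 with DCMU, against 0.268, 0.312 and 0.371 without. RPS6 averaged 0.271 ± 0.0395 in DCMU-treated plants and 0.314 ± 0.0414 in untreated plants (SD, n = 3 each), a change of -13.8% (95% interval -30.6% to 6.99%; limma, adjusted p = 0.349, and 0.0564 to 0.696 over 20 alternatives). With the replicate block, which takes out the shared level of a number pair, the interval narrowed to -0.42 to -0.01 on the log2 scale and the unadjusted p was 0.0443, but limma's adjusted p = 0.128 did not pass. A lower DCMU value in all 3 number pairs was found for RPS6, RPS10 and RPL5, 3 of 5 members, and for 16.5% of all features.

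RPS10 encodes a protein of the head of the small subunit, whose counterpart in Escherichia coli also serves in transcription antitermination. Its replicates were 0.379, 0.435 and 0.390 in DCMU-treated plants (numbers 1-2, 3-4 and 5-6), against 0.399, 0.476 and 0.460 in untreated plants. The highest DCMU replicate exceeded the lowest untreated one, so the groups overlapped. The lowest, median and highest arrays were 0.364, 0.399 and 0.437 with DCMU, against 0.392, 0.429 and 0.524 without. Means were 0.401 ± 0.0298 in DCMU-treated plants and 0.445 ± 0.0409 in untreated plants (SD, n = 3 each), a change of -9.68% (95% interval -24.2% to 7.65%; limma, adjusted p = 0.427, and 0.105 to 0.678 over 20 alternatives). The log2 change was below 0 in each number pair, at -0.07, -0.13 and -0.24, and DCMU was lower at 5 of 6 numbers.

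**Figure D3:**
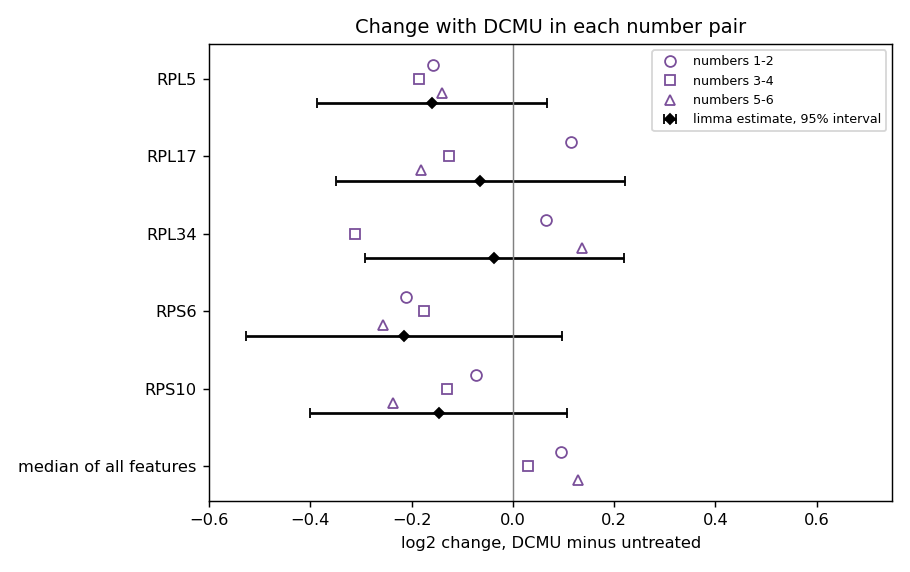
The log2 change (DCMU minus untreated, horizontal axis) is shown for each gene and for the median of all features; open symbols are the 3 number pairs, and black diamonds with bars are limma's estimate with its 95% interval. All 5 intervals include 0, the 3 pairs of RPL5, RPS6 and RPS10 all lie below 0, and the median feature lies above 0 in each pair.

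The median feature was higher with DCMU in each number pair, by 0.10, 0.03 and 0.13 on the log2 scale for numbers 1-2, 3-4 and 5-6. The median of the 5 members was -0.07, -0.18 and -0.18 in the same pairs. Relative to the median feature, the members' changes were -0.31 for RPS6, -0.26 for RPL5, -0.24 for RPS10, -0.16 for RPL17 and -0.13 for RPL34. With median centring of the arrays, the estimates were -0.29, -0.24, -0.22, -0.14 and -0.11 in the same order, and again 0 of 5 passed limma's test, against 6.28% of features. Seen among all features, 12.4% had a lower change than RPS6, 15.7% a lower one than RPL5 and 16.9% a lower one than RPS10. For RPL17 and RPL34 the shares were 24.4% and 27.6%.

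Across replicates the 5 genes did not vary as one group. Deviations from the group mean were compared in the 6 replicates for the 10 pairs of members, which gives 60 comparisons, and 26 of them (43.3%) lay on the same side of the mean. Over all pairs of features the share was 52.4%. Among the 4 pairs of genes of the same subunit, RPS6 and RPS10 deviated to the same side in 6 of 6 replicates, as did 4.07% of all pairs of features. RPL5 and RPL17 did so in 5 of 6, where 17.7% of all pairs reached at least 5. The other two stood lower, RPL5 and RPL34 at 3 of 6 and RPL17 and RPL34 at 2 of 6. Of the 6 pairs across the subunits, RPL5 with RPS6 and RPL5 with RPS10 shared a side in 1 of 6 replicates, and the other 4 in 2 of 6. A count of at most 2 was found for 33.1% of all pairs of features.

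The values behind these counts are given by number pair. In numbers 1-2, RPS6 deviated from its group mean by -0.20 with DCMU and -0.21 without on the log2 scale, and RPS10 by -0.08 and -0.15. In numbers 3-4 both lay above it, RPS6 by 0.21 with DCMU and 0.18 without, and RPS10 by 0.12 and 0.10. RPL17 went the other way, with 0.26 and 0.08 in numbers 1-2 and -0.15 and -0.09 in numbers 3-4. RPL34 followed neither pair of genes: in numbers 3-4 it was at -0.13 with DCMU and at 0.14 without. Deviations within a group add up to 0 and the number pairs are shared by both groups, so these counts are a description and carry no test.

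**Figure D4:**
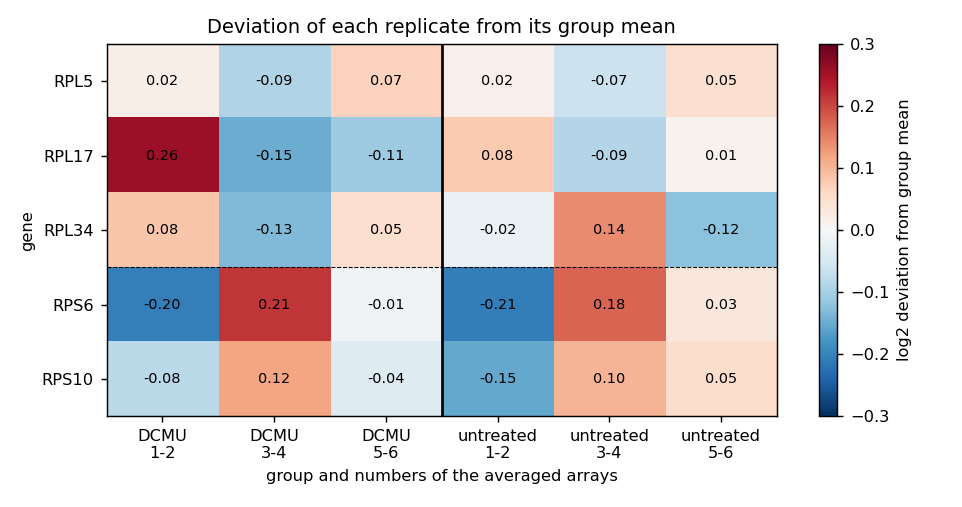
Each cell gives the log2 deviation of a replicate (columns, DCMU on the left and untreated on the right, by number pair) from its group mean for one gene (rows, large-subunit genes above the dashed line and small-subunit genes below it). RPS6 and RPS10 have the same sign in all 6 columns, and RPL5 and RPL17 in 5.

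Over the 12 arrays, the Pearson r of each member's log2 level with the mean of the other 4 standardised members was 0.33 for RPL5, 0.18 for RPS10, 0.14 for RPS6, -0.08 for RPL34 and -0.13 for RPL17. The 5 other named genes closest to the members' mean profile, of 646, were AT4G18180 at 0.89, AT4G35660 at 0.89, AT2G39100 at 0.88, AT5G11550 at 0.87 and LHCB1.5 at 0.86. The 5th and 95th percentiles over the 646 genes were -0.75 and 0.65. All 5 of these genes passed limma's test with lower levels in DCMU-treated plants, with log2 changes between -2.34 for AT4G35660 and -0.67 for AT2G39100, against -0.21 to -0.04 for the members. LHCB1.5, for example, averaged 10.02 ± 1.25 in DCMU-treated plants and 22.3 ± 2.85 in untreated plants (SD, n = 3 each; limma, adjusted p = 0.000912). Group means were not removed, so r includes the difference between the groups, which the members and the 5 closest genes share in sign. A high r here is therefore no measure of shared variation within a group. The arrays of a number pair deviate together, so these values of r are descriptions over 12 arrays and not over 12 independent samples.

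The rest of the plastid ribosome was barely represented. Of 41 nuclear loci listed for plastid ribosomal proteins, 6 had a probe annotated to them alone, the 5 members and AT5G65220, listed as RPL29 of the large subunit. The AT5G65220 probe was listed at 0 on all 12 arrays, so it gave no level and was not tested. All 5 members passed the filter on dim probes in both groups. Their lowest arrays stood 3.36 times (RPS6) to 11.6 times (RPL17) above the floor of 0.0669. With the floor at the 10th percentile, 0.270, the log2 change of RPS6 went from -0.21 to -0.13 (limma, adjusted p = 0.524). In that setting RPS6 was no longer the lowest member, with RPL5 at -0.16 and RPS10 at -0.15. None of 14 listed plastid translation factors had a probe of its own. Among the 4 probes annotated to several genes that include such a factor, 2 had a log2 change below 0, 1 passed limma's test with a higher level in DCMU-treated plants, and the changes ran from -0.01 to 0.55 (lowest adjusted p = 0.0195). Which gene such a probe reports is not known.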

How the data were processed

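Transcript levels were measured by array in 12 samples of 2 groups. The deposited values are linear spot intensities. Array totals differ by a factor of at most 1.03, so the authors appear to have scaled them, by a method not given in the sources used here, as is true of labelling, scanning and background correction. No local background was used, and precision is limited by how few arrays there are.

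A floor of 0.0669, at the 1st percentile of the positive intensities, replaced all lower values before log2 was taken. The 160 probes at or under it on all arrays were left out and probes of 1 gene averaged, which left 3278 features, 651 of them named. Of 692 probes with 1 gene, 690 were found in the RefSeq TAIR10.1 gene table.

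Deviations from the group mean correlated across features at 0.36 to 0.67 between numbers 1-2, 3-4 and 5-6 of a group and at -0.58 to -0.11 between other numbers, so each number pair was averaged. Across groups, replicates of the same numbers correlated at 0.38 to 0.45 and others at -0.38 to 0.01. The criterion for averaging applied to the correlations within a group: over 0.1 for the number pairs, and lower for all other numbers. No threshold was set for the correlations across groups. The pairing of numbers comes from the data alone, and a fit with the replicate block was added as an alternative.

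The comparison used limma 3.58.1 under R 4.3.3 (lmFit, eBayes, two-sided, Benjamini-Hochberg over all features, threshold 0.05), checked on simulated data. The simulated replicates were independent and had no level shared by a number pair, so the check does not cover that part of the design. Genes named are the 5 members, the listed loci with a probe and the 4 leaf markers with a probe of their own. The 5 named genes with the highest r to the members' mean profile, LHCB1.5 among them, are also named. Of the lists, plastid ribosomal proteins and translation factors were matched by locus. Those for other ribosomal proteins, other translation factors, tRNA synthetases and ribosome biogenesis were to be matched by description words, which the annotation lacks, and had 0 members. The senescing-leaf marker SAG12 had no probe. Members and lists were chosen with earlier results of these data known.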

Additional observations from a re-analysis of the deposited data

How the results depend on the processing

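Of 102 estimates of the 5 members under other settings, 98 kept a negative sign and did not pass limma's test. RPL5 passed once, at a log2 change of -0.16 with all 12 samples as separate replicates, which ignores that paired numbers deviate together. RPL17 and RPL34 turned sign only when 1 replicate was left out, with ranges of -0.193 to 0.0104 and -0.0975 to 0.0346. The replicate block changed no call of a member, also after median centring or quantile normalization, but it lowered the adjusted p of each. With the block and median centring, limma's adjusted p was 0.0592 for RPS6, 0.0975 for RPL5 and 0.136 for RPS10. It was 0.361 for RPL17 and 0.461 for RPL34. In the main fit these were 0.349, 0.335, 0.427, 0.776 and 0.856. With the block and quantile normalization, limma's adjusted p was 0.0564 for RPS6 and 0.0887 for RPL5. A filter on features below the median level removed RPS6, RPS10 and RPL34. The number of features that passed, 167, moved more: to 566 with the replicate block, 502 with it after median centring and 465 after quantile normalization, 302 with the number pair as a random effect, 359 with array weights and 1089 with 12 separate replicates. A floor at the 10th percentile gave 110 and no filter on dim probes 102. Leaving out 1 replicate gave 77 to 282. Dropping a DCMU replicate gave 77 (numbers 1-2), 129 (3-4) or 90 (5-6), and dropping an untreated one gave 82 (numbers 1-2), 282 (3-4) or 87 (5-6). The cause was not tested. A probe near the floor cannot be told from none, and 3 replicates per group limit what change could pass.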
